A study of Mus musculus with 3 samples.

Results

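Cluster 22 is a small group of cells that the authors named colonocytes and that lay almost entirely in the day 7 library of a mouse colitis experiment. Its members were taken from the deposited cell table as all cells with cluster number 22. They came to 288 of 37080 cells, of which 279 were from day 7, 4 from day 0 and 5 from day 42. C57Bl/6 mice, bought at 6 weeks of age, gave tissue from the distal colon and the anus for droplet single-cell RNA sequencing of the 3' ends of transcripts. Mice of the day 0 group were untreated, and mice of the day 7 and day 42 groups drank water with 3% DSS (dextran sulfate sodium, a detergent-like polymer that damages colonic epithelium) for 6 days from day 0. Each day was 1 library pooled from 5 mice, made from tissue that was digested with trypsin and depleted of dead cells with Annexin V beads. With 1 library per day and clusters made from these same cells, no test was possible: all values are descriptions, and their 95% intervals cover counting error only.

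Colonocytes are the absorptive columnar cells of the large bowel. They take up water and salt through channels and exchangers in the apical membrane, and their keratins Krt8, Krt18 and Krt19 differ from the Krt5 and Krt14 of the squamous lining of the anus. In colitis the lining is invaded by neutrophils, whose cytoplasm is filled with S100a8 and S100a9, the 2 subunits of calprotectin, and bleeding leaves red cells and haemoglobin RNA in the tissue. A droplet can also capture free RNA from other cells of the suspension, so a molecule read in a cell need not have been made by it.

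Cluster 22 made up 1.94% of day 7 cells (exact Clopper-Pearson 95% interval 1.72 to 2.18). It was 27.5% of the 1015 day 7 cells named colonocytes (24.8 to 30.3), against 0.107% of 3749 at day 0 (0.0291 to 0.273) and 0.336% of 1489 at day 42 (0.109 to 0.782). The larger colonocyte group, cluster 2, held 1936, 703 and 1072 cells at days 0, 7 and 42, and neutrophil cluster 11 held 5, 1513 and 448. The 9 cluster 22 cells of the other days had between 524 and 869 UMIs (unique molecular identifiers, each counting 1 captured molecule). None of those 9 had a haemoglobin UMI, and neutrophil list genes made up at most 0.166% of a cell's UMIs at day 0 and 0.365% at day 42. They were too few to compare between days, and everything below is about the 279 day 7 cells.

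The libraries held 89241138, 151886649 and 72258639 UMIs at days 0, 7 and 42, with median depths per cell of 5995, 6217.5 and 5708. Between 40 and 55 cell barcodes were shared by each pair of libraries, and 1 barcode of a day 7 cluster 22 cell occurred in another library. The doublet caller Scrublet marked 420, 0 and 267 cells at days 0, 7 and 42. Its automatic threshold thus called none of the 14376 day 7 cells, so its calls were not used there and doublets were not removed.

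A cluster 22 cell had a median of 2528 UMIs (lowest 543, highest 9496) and 1237 genes. Cluster 2 cells of the same library had 7194 UMIs and 2114 genes, neutrophils of cluster 11 had 2585 UMIs and 787 genes, and keratinocyte cluster 12, another shallow group, had 1672.5 UMIs and 849 genes. Ribosomal protein genes made up a median 20.7% of a cluster 22 cell's UMIs, with the middle 50% of the cells between 19.1% and 22.3%. The same share was 3.60% in cluster 2, 4.02% in cluster 11 and 24.04% in cluster 12, and 20.8% in the 33 day 7 cells of a further colonocyte group, cluster 7. Mitochondrial genes made up 6.003% in cluster 22 against 14.05% in cluster 2, 7.27% in cluster 7 and 5.001% in cluster 12. In ribosomal and mitochondrial content the medians of cluster 22 thus lay far from those of cluster 2 and nearer those of clusters 7 and 12. Cluster 2 cells varied widely: their middle 50% ran from 2.15% to 10.5% for ribosomal protein genes and from 9.03% to 27.6% for mitochondrial genes. In the summed UMIs of cluster 2, on which its CPM below rest, ribosomal protein genes made up 11.1%, against 20.9% in cluster 22.

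The authors' name was checked against marker lists of 13 cell types. Of the 10 genes with the largest ratio to the rest of the day 7 library, 4 were on the colonocyte list and 0 on any other list. They were Gsdmc4, Lgals4, Krt8, Krt19, Gsdmc2, St6galnac6, Lypd8, Ms4a8a, Prss32 and Il18. The 25 colonocyte list genes summed to 26766 CPM in cluster 22 (counts per 1000000 UMIs of the cluster, exact Poisson interval 26403 to 27133), second among the 20 day 7 clusters of at least 50 cells after the 61650 CPM of cluster 2. Colonocyte cluster 7, with 33 cells, held 31820 CPM. Their per-cell share was 2.22% at the median and 0.476% in the lowest cell, against medians of 5.39% in cluster 2, 0 in cluster 11 and 0.126% in cluster 12. Every cell of cluster 22 had colonocyte list RNA, and the columnar part of the name held for its leading genes.

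Other cell types' genes were present too. The 24 neutrophil list genes held a median 1.11% of a cell's UMIs (lowest 0, highest 7.23%), with 1 of them, Camp, at 0. The 14 squamous list genes held 1.51% (0.104% to 3.86%), with none at 0. Haemoglobin genes held 0.124% (0 to 6.75%). The 6 fibroblast list genes summed to 399 CPM, the 5 endothelial ones to 152 CPM and the 7 macrophage ones to 28.4 CPM, and all 5 B and plasma cell genes were at 0. Among the same 20 clusters, which leave out cluster 7, cluster 22 ranked number 2 for colonocyte genes, number 2 also for fibroblast genes, and number 3 for neutrophil, red cell, endothelial, goblet and T cell genes, the T cell genes at 12.9 CPM. For goblet genes cluster 7 held 599 CPM against 243 CPM. Cluster 22 ranked number 4 for macrophage and pan-leukocyte genes and number 9 for squamous genes, whose 15366 CPM lay below the 24556 CPM of the rest of the library. Red cell genes were also slightly below the rest, at 5710 against 5915 CPM, and fibroblast genes were near it, at 399 against 385 CPM. The other lists ranked here were above the rest, with neutrophil genes at 15647 against 10717 CPM.

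**Figure D1:**
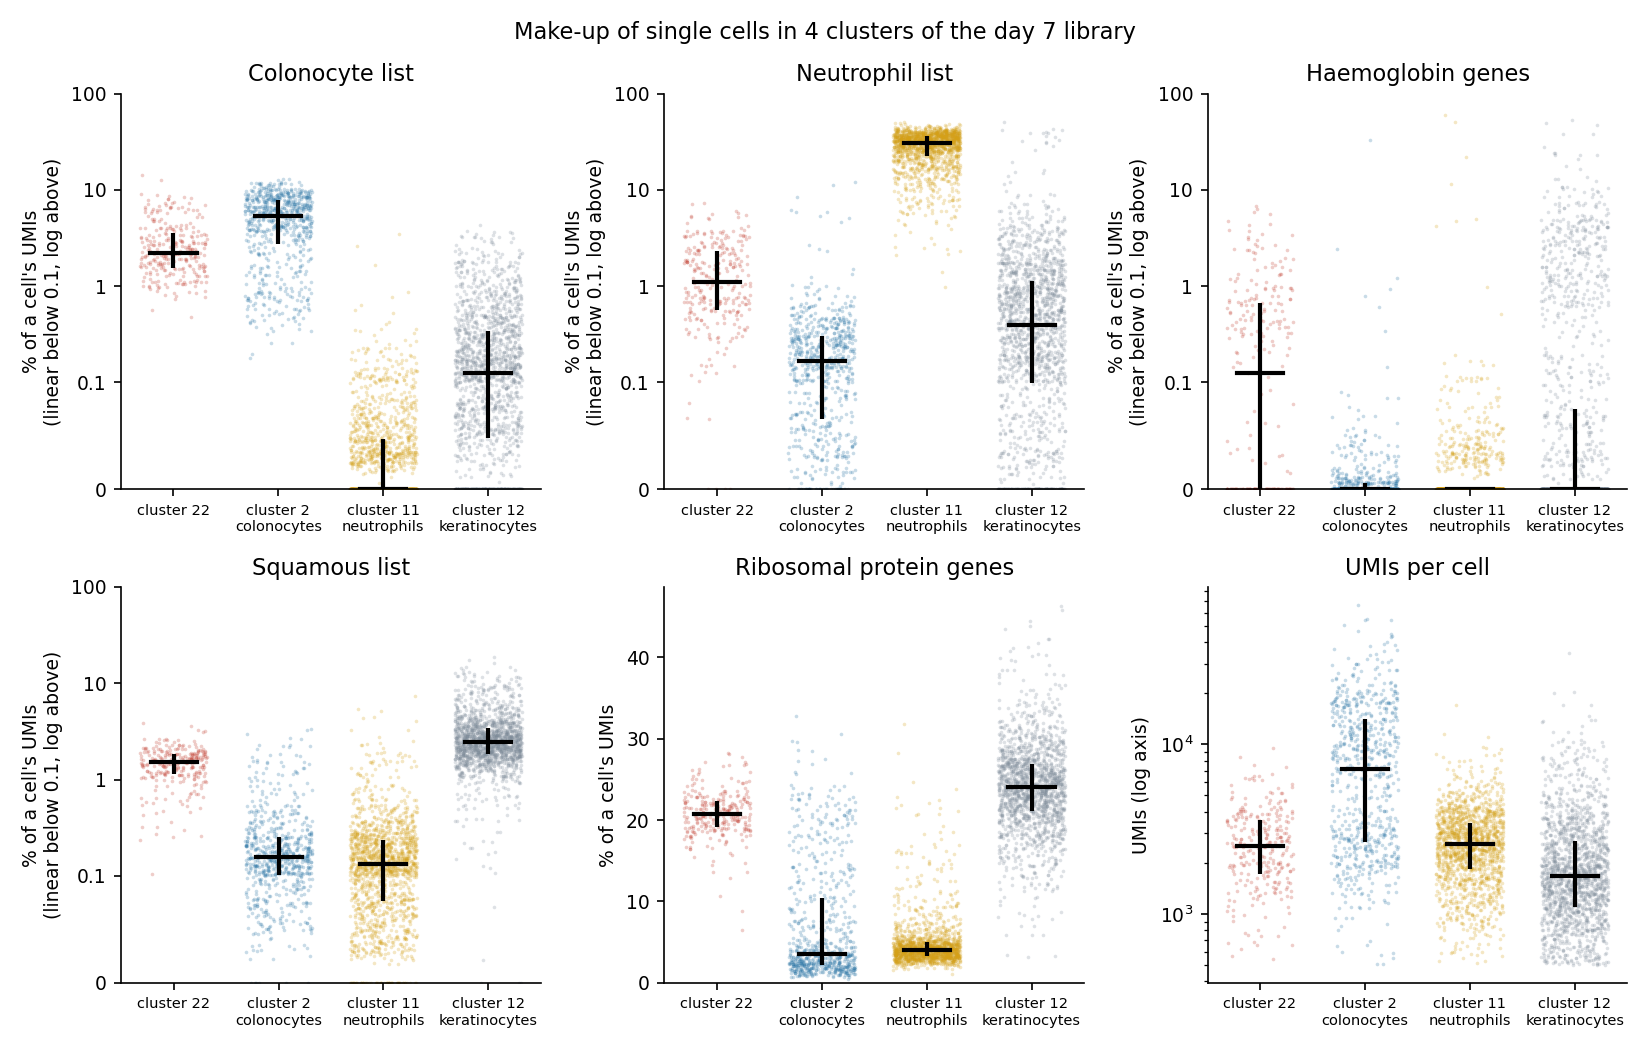
Each point is 1 day 7 cell of cluster 22, colonocyte cluster 2, neutrophil cluster 11 or keratinocyte cluster 12; the first 5 panels give the share of its UMIs in a gene group in percent, the last its UMIs, and black bars mark the median and the middle 50% of cells. Cluster 22 combines a colonocyte share of 2.22% at the median with a squamous share of 1.51% and a neutrophil share of 1.11%, and its ribosomal protein share is narrow around 20.7%.

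The intermediate filament genes show how general the mixture was. Krt8, a keratin of columnar cells (chr15:101996698-102004482, GRCm38), had a UMI in 99.3% of the 279 cells (97.4 to 99.9), and Krt14, a keratin of basal squamous cells (chr11:100203162-100207548), in 98.6% (96.4 to 99.6). Both were read in 97.8% of cells. With every cell thinned to 1000 UMIs, which leaves out 17 of the 279 cells as too shallow, both were read in 88.2% of cluster 22 cells (83.6 to 91.8), in 28.5% of cluster 2 cells, in 15.7% of cluster 12 cells and in 1.34% of neutrophils, which should lack both. At the same depth Krt14 alone was read in 98.1% of cluster 22 cells, 34.4% of cluster 2 cells and 39.3% of neutrophils. Krt8 alone was read in 90.1% of cluster 22 cells, 15.8% of cluster 12 cells and 2.74% of neutrophils. UMIs of both keratins were thus spread over most cells of cluster 22, above a background that was high for Krt14 and low for Krt8.

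Columnar genes come first, because they gave the cluster its name. Lypd8, a secreted protein that keeps flagellated bacteria away from the colonic surface (chr11:58379043-58390728), was read in all 279 cells, at 8656 CPM (8450 to 8866) in cluster 22, 21795 CPM in cluster 2, 89.0 CPM in cluster 11 and 836 CPM in cluster 12. Krt8 stood at 3696 CPM (3562 to 3834) against 7302 CPM in cluster 2 and 35.9 CPM in cluster 11. Krt19 stood at 3061 against 4590 and 38.8 CPM, and Lgals4, a galectin of the gut epithelium, at 4360 against 8380 and 52.4 CPM. For each of these 4 genes cluster 22 lay many times above the neutrophils. It lay below cluster 2 under every setting for Lypd8, Krt8 and Lgals4, while the log2 ratio of Krt19 ran from -1.03 to 0.30.

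Against cluster 2, cluster 22 was at least 2-fold higher in 429 of 3259 genes (13.2%) and at least 2-fold lower in 364 (11.2%), counting genes with 50 CPM in either cluster and taking log2 ratios with 10 CPM added to both. The median log2 ratio over all these genes was 0.05. Totals without mitochondrial, ribosomal protein and haemoglobin genes, S100a8 and S100a9 gave 677 higher genes, and cells thinned to 1000 UMIs gave 778. With median-of-ratios size factors the median became -0.48, and the share of higher genes among those past the fold went from 54.1% to 21.5%. Of the 23 colonocyte list genes measured, 18 were at least 2-fold lower and 0 higher, with a median log2 ratio of -1.33. Of the 16 genes of ion and water transport, 11 were lower and 0 higher (median -1.39), and of the 19 brush border and junction genes 13 were lower and 0 higher (median -1.16). These 3 medians were below 0 under all the settings tried, including the size factors.

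Of the transport genes, several were at or near the level of a few UMIs in the whole cluster. Car4, a membrane-bound carbonic anhydrase of the surface colonocyte (chr11:84957786-84966044), had 5 UMIs in 279 cells, or 6.46 CPM (2.10 to 15.07), against 856 CPM in cluster 2. Car4 was read in 1.43% of cells (0.392 to 3.63) against 54.2% in cluster 2 and 0.727% in neutrophils, and after thinning to 1000 UMIs in 0.763% against 39.97%. The water channel gene Aqp8 and the mucosal chloride-channel accessory gene Clca4a had 1 UMI each, 1.29 CPM with an interval of 0.0327 to 7.20, against 211 and 335 CPM in cluster 2. Atp12a, the colonic proton-potassium pump, stood at 6.46 against 269 CPM, and Slc26a3, the chloride-bicarbonate exchanger that recovers chloride, at 42.6 against 311 CPM. Car4, Aqp8 and Clca4a were in cluster 22 at or under the level of neutrophils (4.999, 1.19 and 1.90 CPM) once the counting error is considered.

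The same 5 genes were present in cluster 2 at every day. Car4 stood there at 525, 856 and 770 CPM at days 0, 7 and 42, Aqp8 at 375, 211 and 276 CPM, and Clca4a at 136, 335 and 510 CPM. Cluster 22 thus lay below cluster 2 of each library for these genes. Clca4b, a close copy of Clca4a with which reads can be shared, stood at 200.2 CPM in cluster 22 against 13.97, 1153 and 187.7 CPM in cluster 2.

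Other transport genes were near the level of cluster 2. The water channel gene Aqp4 stood at 77.5 CPM (59.1 to 99.7) against 107.5 CPM (99.9 to 115.6) and the lactate and butyrate carrier Slc16a1 at 98.2 against 126 CPM. In cluster 2 Aqp4 stood at 2.12 CPM at day 0 and 41.5 CPM at day 42. The transport genes therefore did not share 1 ratio: they ran from log2 -5.72 for Car4 to -0.33 for Slc16a1.

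Brush border and junction genes were lower by smaller amounts. The villin gene Vil1 stood at 117.5 CPM against 276 CPM in cluster 2, Cdhr5, a cadherin that links microvilli, at 186 against 835 CPM, and Espn, an actin-bundling protein, at 5.17 against 52.6 CPM. Tight junction genes Cldn7 and Cldn3 stood at 867 against 1924 CPM and 347 against 957 CPM. The desmosomal gene Dsc2 was the only one of the 19 with a log2 ratio above 0, at 96.9 against 69.2 CPM, and its ratio ran from -0.13 to 0.81 over the settings.

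A further description used 124 columnar-restricted genes, defined after seeing the data as those with at least 100 CPM in cluster 2 and at least 5 times the level of any non-columnar day 7 cluster of 50 cells or more. The level in cluster 22 was not used to choose them. Cluster 22 held these genes at a median 36.5% of the cluster 2 level (10th to 90th percentile 14.6% to 54.9%). All non-columnar cells together held them at a median 0.743%, a low level that the definition sets. In 23 of the genes cluster 22 was at 50% or more of cluster 2, in 70 between 25% and 50%, in 22 between 10% and 25%, and in 9 below 10%. Cluster 7 held the same genes at a median 47.8%. The restricted genes were not held in a fixed proportion: the 90th percentile was 3.77 times the 10th.

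The genes at the top of that order were Gmds, an enzyme of GDP-fucose synthesis, at 91.5% of the cluster 2 level, and the gasdermin C family members Gsdmc2 (chr15:63824346-63845177) at 91.3% and Gsdmc4 (chr15:63891264-63912297) at 79.9%. Gasdermins form membrane pores after cleavage. Gsdmc4 stood at 471 CPM (424 to 522) in cluster 22, 590 CPM (572 to 609) in cluster 2, 458 CPM in cluster 7 and 2.62 CPM in neutrophils. It was read in 62.0% of cluster 22 cells, in 41.96% of cluster 2 cells and in 0.529% of neutrophils, and after thinning to 1000 UMIs in 32.8%, 21.9% and 0.351%. Gsdmc2 stood at 212 CPM (181 to 247) against 232 CPM (221 to 244). The log2 ratio to cluster 2 was -0.32 for Gsdmc4 and -0.12 for Gsdmc2, and it ran from -0.75 to 0.57 and from -0.54 to 0.77 over the settings, so neither gene had a set direction. The 2 genes share sequence: of the 31-base words in the last 500 bases of their longest transcripts, 51.9% for Gsdmc2 and 27.02% for Gsdmc4 also occurred in another Gsdmc gene, so reads may have been split between them. Also near the top were Tnni1 (75.4%), Aqp4 (72.1%), Agr2, a protein disulfide isomerase of secretory cells (68.8%), and the sialyltransferase gene St6galnac6 (62.6%).

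At the bottom, below Atp12a (2.40%), were Clca4a (0.386%), Aqp8 (0.612%) and the serine protease gene Prss30 (1.57%). Saa1 followed at 4.36%, then the peptide carrier Slc15a1 at 7.08%, 2010109I03Rik at 7.96%, the cytochrome P450 gene Cyp2c55 at 8.41% and the carboxylesterase gene Ces2c at 8.93%. Saa1, an acute phase apolipoprotein with a close copy in Saa2, stood at 304 CPM (266 to 345) in cluster 22 and 6968 CPM (6906 to 7031) in cluster 2 of day 7, which itself compared with 1112 CPM at day 0 and 2782 CPM at day 42. Of the Saa1 UMIs of cluster 22, 43.8% lay in 10 cells. Saa1 in cluster 22 was thus below its level in cluster 2 of each day.

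**Figure D2:**
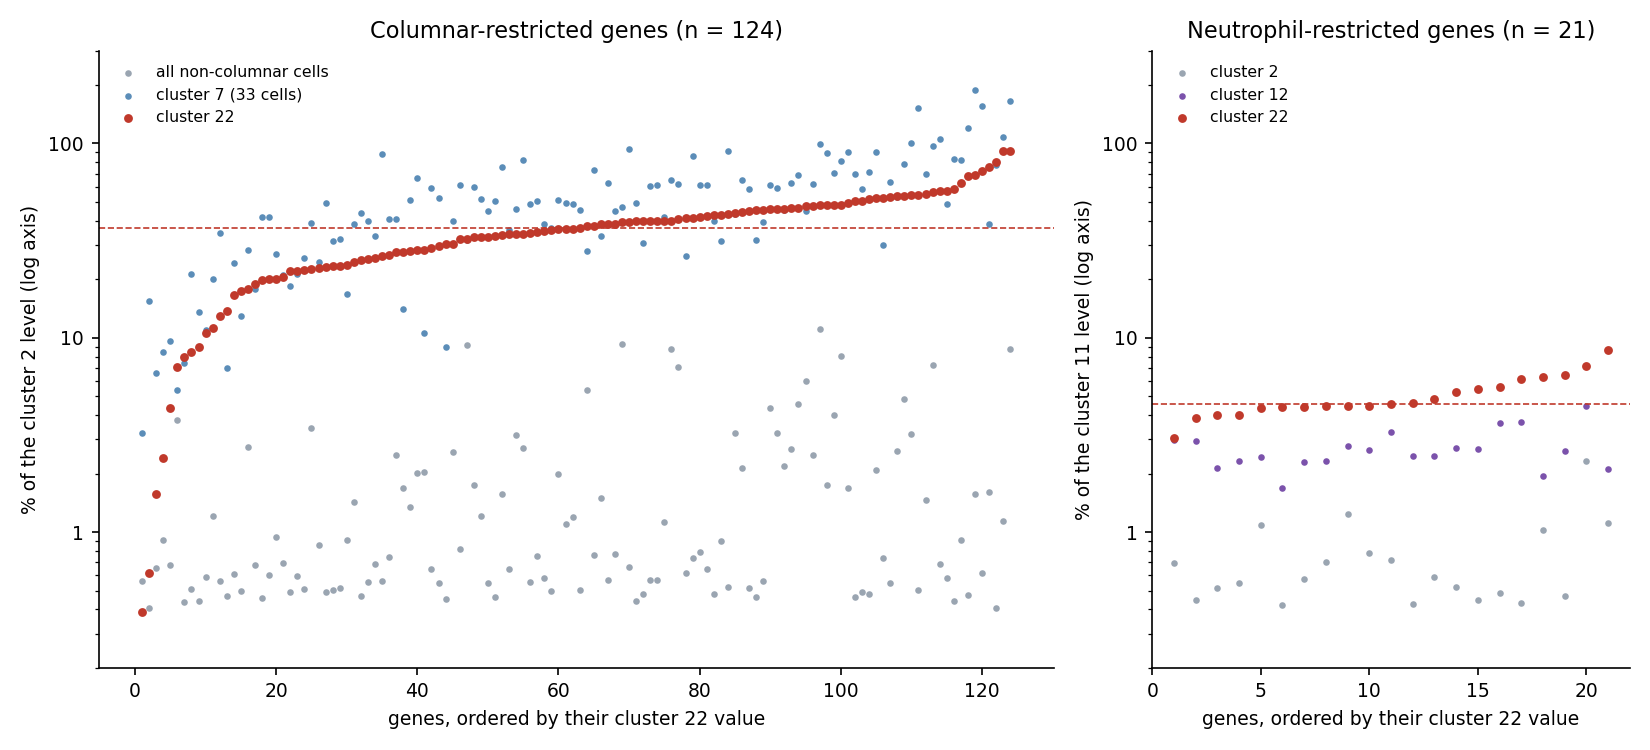
Left, 124 columnar-restricted genes in the order of their cluster 22 level, each as a percentage of its cluster 2 level (log axis) in cluster 22, cluster 7 and all non-columnar day 7 cells; right, 21 neutrophil-restricted genes as a percentage of their cluster 11 level in cluster 22, cluster 12 and cluster 2, with dashed lines at the cluster 22 medians. The columnar values run from 0.386% to 91.5% around a median of 36.5%, and the neutrophil values from 3.04% to 8.68% around 4.55%.

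**Figure D3:**
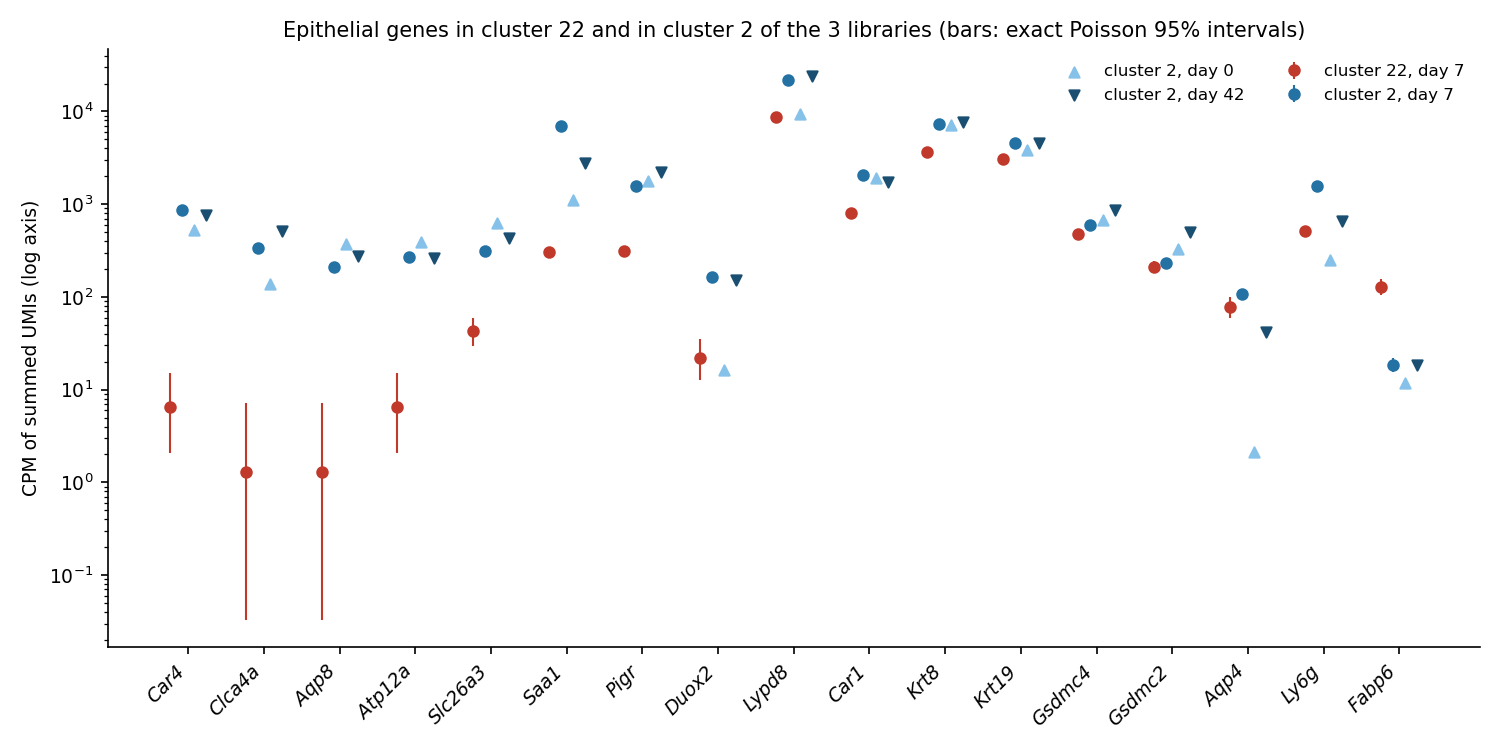
Level in CPM (log axis) of 17 epithelial genes in cluster 22 and in cluster 2 of day 7, with exact Poisson 95% intervals, and in cluster 2 of days 0 and 42. Car4, Clca4a, Aqp8 and Atp12a lie below 10 CPM in cluster 22 and above 100 CPM in cluster 2 of each day, Gsdmc4 and Gsdmc2 lie near their cluster 2 levels, and Fabp6 lies above it.

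S100a9 (chr3:90692632-90695721) stood at 6702 CPM (6521 to 6887) in cluster 22, 663 CPM (644 to 683) in cluster 2, 127200 CPM in neutrophil cluster 11 and 3441 CPM in keratinocyte cluster 12. S100a8 (chr3:90668978-90670035) stood at 4354, 528, 89485 and 2215 CPM in the same order. Per cell, S100a9 ran from 0 to 341 UMIs per 10000 with a median of 45.8, and it was read in 93.2% of cluster 22 cells. After thinning to 1000 UMIs it was read in 88.2% of cluster 22 cells, 63.5% of cluster 12 cells and 12.5% of cluster 2 cells, the last 2 being epithelial groups in which S100a9 was at 2.70% and 0.522% of its neutrophil level. In cluster 2, S100a9 stood at 0.706, 663 and 64.3 CPM at days 0, 7 and 42, the libraries with 5, 1513 and 448 cluster 11 cells.

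Slpi, the remaining marker given for the cluster and an inhibitor of neutrophil elastase made by both epithelia and neutrophils (chr2:164354070-164389095), was less general. It stood at 298 CPM (261 to 339) against 175 CPM (165 to 185) in cluster 2, 3653 CPM in cluster 11 and 163 CPM in cluster 12. Slpi was read in 43.4% of cluster 22 cells and in 30.01% of cluster 2 cells, and after thinning in 20.99% and 9.30%. Its log2 ratio to cluster 2 was 0.74, below the 2-fold mark, but it ran from 0.30 to 1.33 over the settings and was past the mark with the mean of CPM per cell, with thinning and without each gene's 10 highest cells. In the 67 cells with no UMI of Csf3r, Cxcr2, Ptprc, Retnlg or Clec4d, genes of leukocytes, the log2 ratio to cluster 2 was 1.87 for S100a9, 1.55 for S100a8 and 0.49 for Slpi, against 3.32, 3.02 and 0.74 in all 279. Picking cells by the absence of these genes can itself lower the ratios of other neutrophil genes.

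Apart from Ly6g, the neutrophil list genes were far below the neutrophils, and most by about the same factor. Over the 24 neutrophil list genes cluster 22 held a median 4.63% of the cluster 11 level. S100a8 was at 4.87%, S100a9 at 5.27%, the resistin-like gene Retnlg at 4.60%, the granulocyte colony-stimulating factor receptor Csf3r at 4.48%, the chemokine receptor Cxcr2 at 4.33%, the interleukin Il1b at 6.39% and the collagenase gene Mmp8 at 3.84%. For each UMI of S100a9 there were 0.650 of S100a8 in cluster 22 and 0.703 in cluster 11, 0.199 and 0.228 of Retnlg, and 0.107 and 0.0883 of Il1b. Over 21 neutrophil-restricted genes (at least 500 CPM in cluster 11 and 5 times any other cluster, again defined after seeing the data) the share ran from 3.04% for Trem1 to 8.68% for Gm5483, with a 90th percentile 1.60 times the 10th. That definition leaves out genes high outside neutrophils, such as Ly6g, so the range is in part set by it. The same 21 genes were at a median 2.62% in cluster 12 and 0.576% in cluster 2, where the definition caps the level, unlike in cluster 22.

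The exceptions on the list were 3. Camp had 0 UMIs in cluster 22, where 3 UMIs would be 3.87 CPM, against 189.5 CPM in cluster 11, and Ltf had 9 UMIs and stood at 10.8%, a gene that keratinocyte cluster 12 held at 67.5% of the neutrophil level. Ly6g, a surface protein used as a neutrophil marker and a member of a gene family with similar copies (chr15:75155240-75159126), stood at 519 CPM (470 to 573) in cluster 22, 1586 CPM (1556 to 1616) in cluster 2 and 578 CPM (555 to 602) in cluster 11. The highest Ly6g level of the day 7 library was thus in the colonocytes of cluster 2, where it had stood at 253 CPM at day 0 and stood at 663 CPM at day 42, and cluster 22 held 32.7% of it. Ly6g sat within the range of the columnar-restricted genes, and it was lower than cluster 2 while 14 of the 15 list genes measured in that comparison were higher.

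Against cluster 11, cluster 22 was at least 2-fold higher in 1753 of 3354 genes (52.3%) and at least 2-fold lower in 702 (20.9%), with a median log2 ratio over all genes of 1.10. Size factors moved that median to -1.23 and the share of higher genes among those past the fold from 71.4% to 20.2%, so counts in this comparison hang on the scaling. All 20 measured colonocyte genes were higher and 23 of the 24 neutrophil genes lower, with medians of 4.73 and -4.28. The 12 highest ratios were Lypd8, Krt8, Lgals4, Krt19, Car1, Gsdmc4, Tspan1, Muc13, Muc3, Cldn7, Phgr1 and Prss32, at log2 5.02 to 6.45. The 12 lowest were Trem1, Ccl4, Ifitm1, G0s2, Clec4e, Cxcl2, Cd33, Hdc, Wfdc17, Mmp8, Retnlg and Wfdc21, at -4.68 to -4.41, being the end of the order.

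Red cell genes followed a similar course. Hbb-bs stood at 3017 CPM (2896 to 3142) in cluster 22 against 274 CPM in cluster 2, 927 CPM in cluster 11 and 3893 CPM in cluster 12, and the red cell clusters 23 and 25 held 504000 CPM. The share of the red cell level was 0.599% for Hbb-bs, 0.518% for Hba-a1, 0.609% for Hba-a2 and 0.909% for Hbb-bt, where the Hba copies and the Hbb copies can share reads. A haemoglobin UMI was read in 56.99% of cluster 22 cells, 29.9% of cluster 2, 16.6% of cluster 11 and 33.2% of cluster 12. After thinning to 1000 UMIs, Hbb-bs was read in 51.1% of cluster 22 cells, 4.22% of cluster 2, 4.15% of cluster 11 and 27.3% of cluster 12. Of the red cell membrane genes, Slc4a1 was at 0 in cluster 22.

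Within cluster 22, cells with a larger neutrophil share also had a larger haemoglobin share. Over the 279 cells the neutrophil share and the haemoglobin share had a Spearman rho of 0.71, the colonocyte share had -0.45 with the neutrophil share and -0.66 with the squamous share, and the neutrophil share had 0.11 with the UMIs of the cell. These are descriptions over cells of 1 library, and shares of 1 total pull each other down. Red cell clusters themselves held a median 0.0163% of neutrophil list UMIs and neutrophils a median 0 of haemoglobin UMIs, against 1.11% and 0.124% in cluster 22. The part of this blood cell RNA in the other ratios was not tested.

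The genes highest against cluster 2 were a mixture of origins. Vim, an intermediate filament of mesenchymal cells and leukocytes, led with 329 against 14.5 CPM (log2 3.79), with 971 CPM in cluster 11. Next came Krt14, Retnlg, S100a9, Krt5, Ctla2a, Krt6a, Lcn2, Hist1h1b, Il1b, Ifitm6 and Krt16, at log2 3.35 to 3.08. Lcn2, an iron-binding antimicrobial protein of neutrophils and inflamed epithelium, stood at 562 CPM against 52.1 CPM in cluster 2 and 6552 CPM in cluster 11, or 8.57% of the neutrophil level. Over the other day 7 clusters, 4 of the 12 were at their highest in neutrophil cluster 11, 5 in a keratinocyte cluster, Vim and Ctla2a in endothelial cluster 16, and Il1b in macrophage cluster 19.

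Each gene was also placed against clusters 2 and 11 together. Of 3819 genes compared, 1914 (50.1%) lay between their levels, 328 (8.59%) lay at least 2-fold above both and 20 (0.524%) at least 2-fold below both. With size factors 65 genes lay above both and 137 below both. Of the 13 squamous list genes measured, 10 were above both: Krt14 stood at 5421 CPM (5258 to 5587) against 522 and 840 CPM, Krt5 at 2193 against 219 and 255 CPM, and Lgals7, a galectin of squamous cells, at 2463 against 614 and 560 CPM. Of the 10 proliferation genes measured, 9 were above both, with topoisomerase gene Top2a at 128 against 11.6 and 9.76 CPM and the survivin gene Birc5 at 124 against 16.01 and 8.33 CPM. The stromal genes Col3a1 (collagen, 187 CPM), Sparc (159 CPM) and Igfbp7 (202 CPM) were also above both. All 4 measured red cell genes were as well. The medians of the squamous and proliferation lists against cluster 2, 2.01 and 2.02, were above 0 under every setting tried.

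Keratinocyte cluster 12 held the squamous and proliferation genes named above at higher levels than cluster 22. Krt14 stood there at 11781 CPM, Krt5 at 3660 CPM, Lgals7 at 4495 CPM, Top2a at 147 CPM and Birc5 at 206.5 CPM. The proliferation genes were also higher in colonocyte cluster 7: the list summed to 1976 CPM there, 1663 CPM in cluster 12, 938 CPM in cluster 22 and 165 CPM in cluster 2. With the red cell clusters as a further profile 322 genes stayed above all, and with cluster 12 added only 5 did, among them Col3a1, Cxcl1, Col1a2 and Fabp6. These further profiles were chosen after seeing the data. For Col3a1 and Col1a2 the highest level was in fibroblast cluster 10, and for Cxcl1, a neutrophil-attracting chemokine at 94.3 CPM, in endothelial cluster 16. Over 100 squamous-restricted genes, cluster 22 held a median 46.3% of the level in the rest of the library and cluster 2 14.9%. Such genes had to be at least 5 times higher in the top keratinocyte cluster than in the non-squamous clusters used as a filter. Cluster 2 was among those and cluster 22 was not, and Unknown clusters 6 and 14 were left out. The definition thus caps cluster 2 but not cluster 22, so the gap between these medians is in part set by it. Over the genes expressed, the profile of cluster 22 was set against the 19 other day 7 clusters of 50 cells or more, which leave out cluster 7. It correlated best with the authors' cluster 6, named Unknown (r 0.857 across 2633 genes of this library). Next came cluster 12 (0.820), cluster 2 (0.782) and, far lower, cluster 11 (0.550). Marker levels of cluster 6 were not described, so the mixture is not shown to be particular to cluster 22.

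One gene stood at least 2-fold above every other day 7 cluster of 50 cells or more. Fabp6, the bile acid binding protein of ileal absorptive cells (chr11:43596049-43601540), stood at 129 CPM (105 to 157) in cluster 22 against 18.7 CPM in cluster 2, 30.5 CPM in cluster 7, 22.7 CPM in cluster 12, 2.38 CPM in cluster 11 and 45.2 CPM in keratinocyte cluster 4, the next highest. It rested on 100 UMIs in 18.3% of cells (13.9 to 23.3), with 43.0% of them in 10 cells. After thinning to 1000 UMIs it was read in 8.02% of cluster 22 cells, 0.581% of cluster 2, 2.41% of cluster 12 and 0.141% of neutrophils. In cluster 2, Fabp6 stood at 11.7 CPM at day 0 and 18.5 CPM at day 42.

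The 20 genes below both clusters were led by Marcksl1, Qsox1, Mxd1, Pglyrp1 and Max. Marcksl1, a membrane-bound actin regulator, stood at 71.03 CPM against 303 in cluster 2 and 523 in cluster 11, and Mxd1, a partner of Max that opposes Myc, at 280 against 675 and 1522 CPM. Pglyrp1, an antibacterial peptidoglycan-binding protein, stood at 664 against 1513 and 1676 CPM. All 3 were also lower in keratinocyte cluster 12 than in clusters 2 and 11, at 53.7, 90.7 and 101 CPM.

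**Figure D4:**
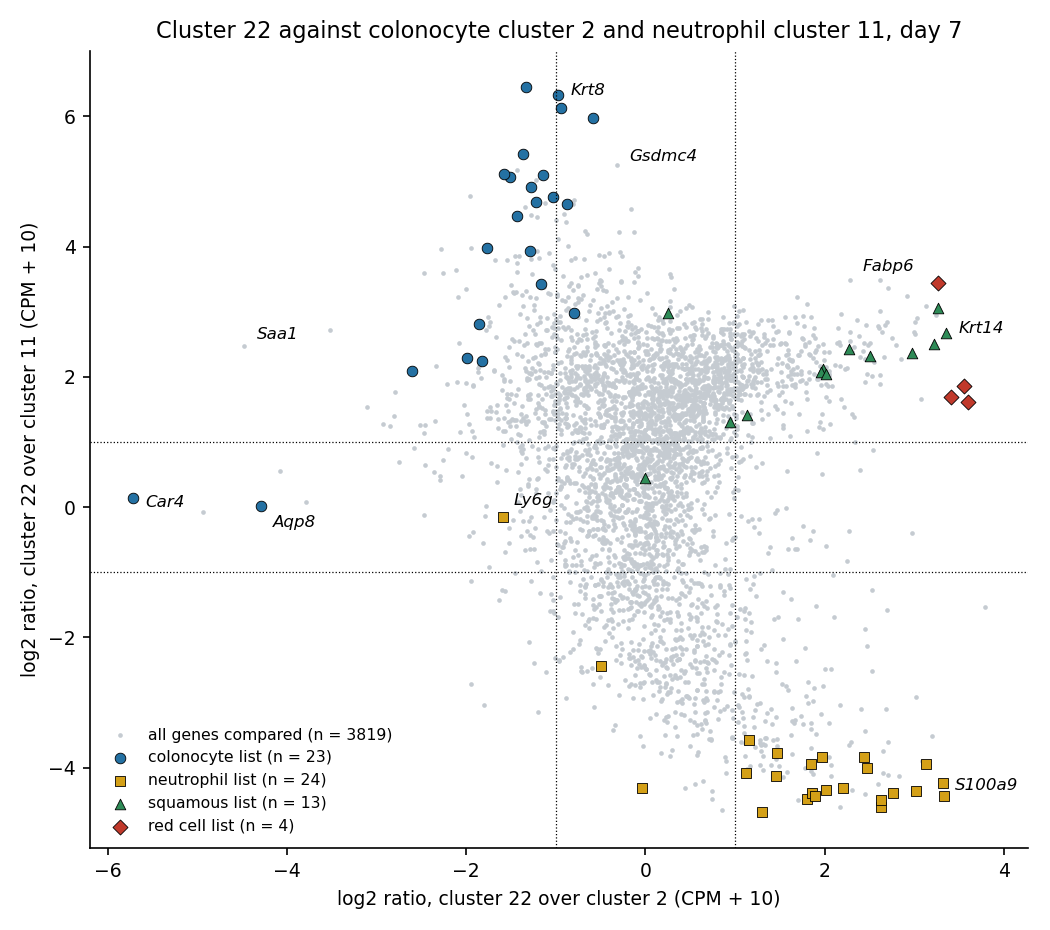
Log2 ratio of each gene in cluster 22 to colonocyte cluster 2 (x axis) and to neutrophil cluster 11 (y axis), with 10 CPM added, for 3819 genes of the day 7 library; dotted lines mark 2-fold, and 4 marker lists are coloured. Colonocyte genes lie high and left, most neutrophil genes low and right, with Ly6g, Ltf and Camp left of 0, and squamous and red cell genes lie above both clusters at the upper right.

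Defence and response genes were compared as further groups, whose counts stand beside the 13.2% of all genes higher and 11.2% lower than cluster 2. Of 9 antimicrobial and acute phase genes measured against cluster 2, 3 were higher (Lcn2, Chil3 and Lyz2) and 4 lower (Saa1, Lypd8, Plac8 and Pigr). Chil3, a chitinase-like protein of macrophages and neutrophils, stood at 69.7 CPM with 1 UMI in cluster 2, 95.5 CPM in cluster 11 and 2802 CPM in macrophage cluster 19. Its log2 ratio to cluster 2 was -0.021 in the 67 cells with no leukocyte UMI. Both levels there were far below the 10 CPM added, so this ratio does not compare them. Lyz2, the lysozyme of myeloid cells, stood at 133 CPM against 7.64, 1067 and 7030 CPM. Pigr, the receptor that carries immunoglobulin A across the epithelium, stood at 313 against 1562 CPM. Of 9 oxidant defence genes 1, Gclm, was higher and 4 were lower, among them Duox2, the hydrogen peroxide generating oxidase of the gut surface, at 21.96 against 166 CPM, and its maturation factor Duoxa2 at 41.3 against 175 CPM. In cluster 2 Duox2 had stood at 16.4 CPM at day 0, so cluster 22 lay near the untreated level of this gene.

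Wound and regeneration genes were close to cluster 2. Of 13 measured, 2 were at least 2-fold higher and 0 lower (median -0.07). Of these Anxa5, an annexin, stood at 155 against 69.6 CPM. Ly6a, a surface protein raised in repairing mouse colon, stood at 1674 against 1879 CPM, with 197 CPM in cluster 2 at day 0 and 60.7 CPM in neutrophils. Areg, an epidermal growth factor receptor ligand, stood at 739 against 901 CPM. Cluster 12 held 1026.5 CPM of Ly6a and 360 CPM of Areg.

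Of 10 chemokine and cytokine genes measured, 5 were higher, Cxcl1, Cxcl2, Cxcl3, Ccl6 and Il1b, and 1, Cxcl16, was lower, beside the same 13.2% and 11.2% of all genes. In the 67 cells with no leukocyte UMI the log2 ratio of Cxcl1 was -0.0067 and that of Ccl6 0.95. Cxcl2 stood at 546 against 80.04 CPM in cluster 2 and 12525 CPM in cluster 11. Il18, an epithelial cytokine processed by inflammasomes, stood at 238 against 431 CPM in cluster 2 and 7.86 CPM in neutrophils.

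None of 9 unfolded protein response genes was past 2-fold in either direction against cluster 2, and of 12 cell death genes 0 were higher and 1, the pyroptosis executor Gsdmd, lower at 114 against 246 CPM. Of 15 fatty acid oxidation and respiration genes 1, Ndufa4, was higher and 0 were lower. Against the same 13.2% and 11.2% of all genes, of 13 hypoxia and glycolysis genes 3 were lower (Bnip3, Egln3 and Car9), of 7 class I antigen presentation genes 1 was lower (H2-K1), and of 5 interferon response genes 2 were lower (Irf7 and Gbp2). Of 15 immediate early and dissociation stress genes 3 were higher (Hspa1a, Hspa1b and Ier3) and 2 lower (Fosb and Klf4). Of the 11 function lists described here, the medians of 6 changed sign between settings, namely antimicrobial, wound, chemokine, fatty acid oxidation, unfolded protein response and cell death genes, so no direction is given for them.

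The spread over cells was described gene by gene. After thinning to 1000 UMIs, the variance of a gene over cells divided by its mean was 1.03 at the median of 927 genes, where 1 is the value of pure counting, against 1.14 in cluster 2 for the same genes; at this depth genes of low mean lie near 1 in any cluster, so the median does not show low variation. The genes with the largest ratios were Malat1 (12.1), Hbb-bs (9.92), Car1, the cytosolic carbonic anhydrase of colonocytes (9.53), mt-Atp6 (6.21), S100a9 (6.01) and Lypd8 (5.88). Car1 ranged over cells with 26.7% of its UMIs in 10 of them and was read in 69.2% of cells. The largest values of this ratio were thus in the nuclear RNA Malat1 and in mitochondrial, red cell, neutrophil and a few colonocyte genes. Fth1 (4.61) and S100a6 (4.13) were also high. For a given relative spread the ratio rises with the mean, and several of these genes are abundant, such as mt-Atp6 at 16.1 UMIs per 1000. The order therefore does not rank relative variation.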

How the data were processed

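Cells of distal colon and anus were read in 3 droplet libraries. The deposited matrix holds raw counts per gene and cell, which the authors made with Cell Ranger 3.0.2 on mm10, per the submitters' processing notes. The annotation release is not given in the sources used here. The size factor column that the authors deposited is a ratio: every cell's total divided by it gave 5283.43. Cluster numbers and cell type names are the authors'. Counts of 31053 genes were summed over the day 7 cells of a cluster and scaled to 1000000 (CPM). Ratios are log2 with 10 CPM added. Genes with at least 50 CPM in a compared cluster were counted, and a gene past 2-fold was called. The median of a list was taken over at least 5 measured genes. Shares carry exact Clopper-Pearson and sums exact Poisson 95% intervals, for counting error only. With 1 library per day no test was made. The summing and calling steps were tested on simulated data. The cluster, the gene lists and the alternatives were chosen with earlier results of these data known.

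Genes named by rank were the 12 highest and 12 lowest ratios to cluster 2 and to cluster 11 (at least 100 CPM in either), the 15 highest above both and the 10 lowest below both. The ranks left out genes of mitochondria, ribosomal proteins, immunoglobulins and haemoglobins, and also Xist and Y-linked genes. Other genes named are members of the lists, which covered 13 cell types and 16 functions, or the extremes of the restricted sets, and genes named from outside these were chosen after their values were seen. Of the list members 2, Il36a and Il36g, matched no symbol. Some genes are not reported here. The alternatives were other scalings, pseudocounts, filters, thinning, removal of cells by depth, doublet score or leukocyte UMIs, and dropping, for each gene, its 10 highest cells. Coordinates are from GENCODE M21 (GRCm38), where the identifiers of all 511 genes looked up were found. Work was done in scanpy 1.11.5 (Scrublet) and scipy 1.17.1 (intervals), with matplotlib 3.10.9, pandas 2.3.3 and numpy 2.4.6 under Python 3.11.15.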

Additional observations from a re-analysis of the deposited data

How the results depend on the processing

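No paired analysis was possible because each day was 1 pooled library. Median-of-ratios size factors gave 156 genes higher and 570 lower than cluster 2, 421 higher and 1660 lower than cluster 11, 65 above both, 137 below both, and 2 and 5 lists with a median at least 2-fold higher or lower than cluster 2. Totals without mitochondrial, ribosomal protein and haemoglobin genes, S100a8 and S100a9 gave 677 genes higher than cluster 2 and 530 above both. The mean of CPM per cell gave 715 higher than cluster 2, 577 above both and 47 below both, and thinning to 1000 UMIs gave 778, 628 and 59. A pseudocount of 1 CPM gave 39 below both. Leaving out each gene's 10 highest cells, 588 were lower than cluster 2 and 88 below both. The 67 cells without a leukocyte UMI gave 78 below both. A minimum of 20 CPM gave 790 higher than cluster 2, 3338 higher than cluster 11 and 577 above both. A minimum of 100 CPM gave 245 higher and 236 lower than cluster 2, 917 higher than cluster 11, 189 above both, 12 below both and 2 higher lists. A 4-fold threshold gave 123 higher and 42 lower than cluster 2, 880 higher and 407 lower than cluster 11, 60 above both, 0 below both and 0 lower lists; fewer genes pass these by construction.

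The cell filter of 1000 UMIs, 500 genes and 20% mitochondrial UMIs made cluster 22 2.28% of day 7 cells, 34.5% of colonocytes and 33.5% of columnar cells. Against the neutrophils of day 42, the neutrophil list median was 6.33%. Krt8 and Krt14 were both read in 88.2% of cells at 1000 UMIs and 63.8% at 500 UMIs. With red cell clusters and cluster 12 as further profiles, chosen after seeing the data, 5 genes lay above all.

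Of single-gene log2 ratios past 2-fold, 14 changed sign. Ratios nearer 0 also crossed it, among them those of Krt19 (-1.03 to 0.30), Agr2 (-0.93 to 0.70), Aqp4 (-0.79 to 0.53), Ly6a (-0.61 to 0.30), Areg (-0.72 to 0.39), Dsc2 (-0.13 to 0.81) and Slc16a1 (-0.71 to 0.04) to cluster 2. With size factors those to cluster 11 were -0.46 for Hcfc1r1, -0.31 for Ppbp, -0.21 for Scd1 and -0.047 for Gsdmd. Without the top 5% of Scrublet scores Ccl21a was 0.19 against cluster 2. In cells without a leukocyte UMI, against cluster 2, Retnlg was -3.74, Csf3r -0.67, Cxcr2 -0.72, Clec4d -0.89, Ptprc -0.60, Hdc -0.26, Chil3 -0.021 and Cxcl1 -0.0067, and Cxcl1 was -0.34 against cluster 11; Retnlg, Csf3r, Cxcr2, Clec4d and Ptprc are low there by construction. For the others the cause was not tested, and the Chil3 ratio is set by the 10 CPM added. The default Scrublet threshold called 0 day 7 cells, so it gave no other value. The depth of 2528 UMIs per cell limits what can be read of genes near 1 UMI in the whole cluster.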
